A study of Mus musculus with 4 samples.

Results

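Genes that lie close to Hdac2 on mouse chromosome 10 were followed in heart ventricles of embryos that lack HDAC2. The 10 genes are Marcks, Fyn, Traf3ip2, Rev3l, Ddo, Wasf1, Fig4, Cd164, Foxo3 and Cd24a, named here in their order from Hdac2 in the mouse assembly GRCm38.p6. Every probe set for which the platform annotation names 1 of these genes alone was taken, 27 of the 45037 probe sets that are not controls. The group was chosen by the signal differences of Ddo, Cd24a and Cd164 between the genotypes on these arrays. Their differences, and those of the other members in the same comparison, are therefore given as a description, with no p-value. How many passed in the fit of the whole array is given as a count, and nothing is read from it.

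Transcripts were measured on 4 Affymetrix MOE430v2 arrays, 2 from HDAC2-deficient embryos (KO) and 2 from wild-type littermates (WT). All embryos were at day 17.5 of development, from a cross of C57BL/6 and SV129. The tissue of 3 animals was pooled for each KO array and that of 2 for each WT array, so pool size differs with genotype. The labels do not say whether pools share animals. Errors and p-values thus cover only how these pools scatter, part of which may be technical. The sources used here do not name the kind of Hdac2 mutation or the strain it was made in. In a mutant kept on a mixed background, alleles of genes near the mutated locus tend to be inherited with it. Loss of HDAC2 and any strain difference in its neighbours cannot be told apart in this design.

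HDAC2 is a class I histone deacetylase that works as a subunit of corepressor complexes, among them Sin3, NuRD and CoREST. By removing acetyl groups from histone tails, such complexes generally lower transcription of the genes they sit on. HDAC2 is known in the heart for its part in the growth of heart muscle. The neighbouring genes share position, not a pathway. They encode an amino acid oxidase, surface glycoproteins, signalling proteins, a transcription factor, a lipid phosphatase, an actin regulator and a DNA polymerase.

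The Hdac2 probe sets followed the titles, although the source field of both KO samples reads wild type. The brightest, 1445684_s_at, had signals of 31.4 and 21.0 in KO and 1189 and 1421 in WT (log2 difference -5.66 ± 0.21, moderated SE, adjusted p = 2.32e-09 in limma). All 3 Hdac2 probe sets were Absent on both KO arrays, so their folds are lower limits, taken against the KO signal or the dimmest Present signal of the array, whichever was higher. The signal was at least 50.6-fold lower in KO at 1445684_s_at, at least 71.8-fold lower at 1449080_at (adjusted p = 2.86e-07) and at least 2.69-fold lower at 1439704_at (adjusted p = 0.123). Present calls covered 43.1% and 43.7% of probe sets in KO and 43.1% and 42.4% in WT. Genes of other origins moved with genotype too. Markers of skeletal muscle were called lower in KO (adjusted p under 0.05 in limma) at 9 of the 11 tested. Over all genes at their brightest tested probe set, 0.815% were called lower. The summed signals of the skeletal muscle markers were 1244 and 1214 in KO and 13144 and 12322 in WT. Bone and cartilage markers were called lower at 3 of 6 tested and fibroblast markers at 2 of 9. Of 8 epicardial and 10 endothelial markers tested, 0 were called. Xist, the RNA of the inactive X chromosome, had signals of 548 and 794 in KO and 80.5 and 90.1 in WT at 1436936_s_at. At 1427262_at it read 414 and 797 in KO and 1.3 and 6.1 in WT, Absent on both WT arrays. Eif2s3y, on the Y chromosome, read 240 and 126 in KO and 431 and 449 in WT. Uty and Kdm5d, also Y-linked, were lower in KO too. No label gives the sex of the embryos. Sex-linked signals thus differed with genotype, and the part of sex in other differences was not tested. The 3' probe set of the actin control over its 5' probe set, which rises as RNA breaks down, gave 2.75 and 2.42 in KO and 1.85 and 2.32 in WT. The heart origin of the RNA was clear from the 10 cardiomyocyte markers, all Present on all 4 arrays, with none called and summed signals of 111334 and 118384 in KO and 116312 and 114133 in WT.

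All 10 genes lie on the same side of Hdac2 in GRCm38.p6. Marcks is the next protein-coding gene, 0.159 Mb from the start of Hdac2. Fyn, Traf3ip2 and Rev3l are neighbours of each other, 2.40, 2.64 and 2.76 Mb away. Ddo follows at 3.66 Mb with 19 protein-coding genes between it and Hdac2, then Wasf1 at 3.91, Fig4 at 4.21, Cd164 at 4.55 and Foxo3 at 5.21 Mb. Cd24a is the farthest, at 6.61 Mb with 46 protein-coding genes between. The platform annotation names no genome build, so GRCm38.p6 served for gene order and spacing only.

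Upstream sequence was at hand from RefSeq (GRCm38.p6) for 6 of the 10 genes, and the 250 bases before the start of Ddo and of Cd164 are shown because these are the members with an entry among the genes the group was chosen for. Capitals mark matches on either strand to CACGTG (the E-box), GGGCGG (the GC box) or CCAAT, and TATAAA was searched for as well. The first sequence lies at chr10:40629761-40630010 and the second at chr10:41519250-41519499, both on the plus strand.
Ddo: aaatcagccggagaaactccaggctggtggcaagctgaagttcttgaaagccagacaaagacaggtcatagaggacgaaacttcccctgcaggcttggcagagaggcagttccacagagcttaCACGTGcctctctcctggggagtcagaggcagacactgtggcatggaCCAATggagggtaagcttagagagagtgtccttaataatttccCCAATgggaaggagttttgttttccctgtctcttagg
Cd164: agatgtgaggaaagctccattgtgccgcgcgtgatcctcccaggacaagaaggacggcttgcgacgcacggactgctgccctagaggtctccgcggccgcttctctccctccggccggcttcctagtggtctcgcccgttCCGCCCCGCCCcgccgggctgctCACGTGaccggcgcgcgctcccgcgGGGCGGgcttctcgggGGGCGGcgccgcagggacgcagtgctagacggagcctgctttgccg

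The upstream sequences of these genes differed in base composition. That of Ddo held 3 CpG dinucleotides and 51.2% G and C, and that of Cd164 held 33 and 71.6%, where the median over 32851 upstream sequences of the same length was 6 and 52.4%. The CpG counts of Fyn (21), Wasf1 (15), Fig4 (8) and Foxo3 (31) lay between those of Ddo and Cd164, and Hdac2 itself had 27. Ddo and Cd164 each held 1 CACGTG, a motif found in 6.02% of all such sequences. Cd164 held 4 matches to GGGCGG, 2 of them overlapping by a base, a motif in 32.7% of all. Ddo held 2 matches to CCAAT, which 33.8% of all have, and neither held TATAAA (12.4% of all). These matches are descriptions of the letters only.

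Of the 27 probe sets, 18 were called Present on all 4 arrays and 5 were Absent on all 4. A probe set was tested when it was Present on both arrays of at least 1 genotype, which 19 probe sets covering all 10 genes were. The 8 others, with signals of 1.6 to 192, are accounted for below but have no SE. In the limma fit over all 19065 probe sets tested, 5 of the 19 passed an adjusted p of 0.05, 4 higher and 1 lower in KO, where 1.34% of all probe sets passed, 0.383% higher and 0.96% lower. Without WT replicate 1 the count was 2, and likewise 2 without KO replicate 2. They belong to Cd24a, Cd164 and Ddo, the genes the group was chosen for, so the share says nothing further. At 10 of the 19 the genotypes did not overlap, beside 47.5% of all probe sets tested. The median log2 difference of the 19 was 0.028, beside 0.014 over all probe sets tested, and the median size regardless of sign was 0.17, beside 0.19.

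**Figure D1:**
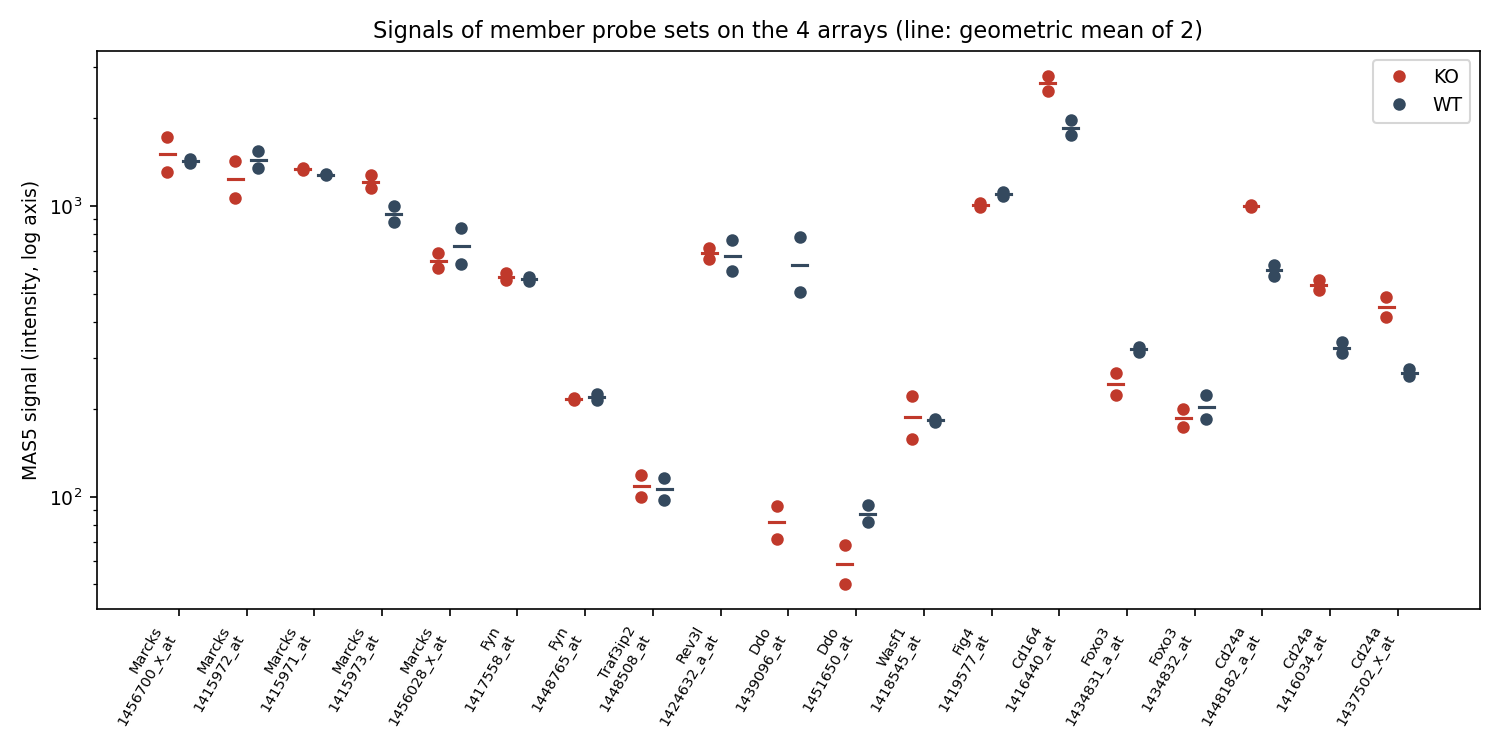
MAS5 signals (linear intensity drawn on a log axis) of the 19 tested probe sets of the 10 genes, KO to the left of WT, with a point for each array and a line at the geometric mean of 2. The KO points of Ddo 1439096_at lie far below the WT points, those of Cd164 and of the 3 Cd24a probe sets lie above them, and those of Fyn, Traf3ip2, Rev3l and Wasf1 overlap them.

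Ddo encodes D-aspartate oxidase, a peroxisomal enzyme that breaks down D-aspartate and other acidic D-amino acids. Its signal was far lower in KO at 1 of its 4 probe sets and modestly lower at another. Probe set 1439096_at read 71.7 and 93.1 in KO, against 780 and 506 in WT. Both KO pools lay far below both WT pools, and all 4 arrays were called Present, with detection p-values of 0.000732 and 0.00122 in KO and 0.000244 on both WT arrays. The difference was -2.94 ± 0.21 on the log2 scale, which puts KO at 13.0% of WT. The WT pools themselves were unequal here, with an SD of 0.44 on the log2 scale against 0.27 in KO, and the difference was -2.63 without WT replicate 1 and -3.26 without WT replicate 2. In the deposited signal log ratio, a comparison of each array with a baseline array, it was -2.35.

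The other Ddo probe sets did not show a change of that size. Probe set 1451650_at, Present on all 4 arrays, read 50.2 and 68.5 in KO and 93.6 and 82.0 in WT. The KO pools were again below the WT pools, but by -0.58 ± 0.26, or 66.9% of WT. Probe set 1453499_at was Absent throughout with 22.3 and 28.5 in KO and 35.0 and 27.9 in WT, and 1454025_at likewise with 1.6 and 3.8 in KO and 2.6 and 14.4 in WT. Which part of the transcript each probe set reads was not looked up here. In pooled tissue, fewer cells of a type and less RNA per cell cannot be told apart.

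Skeletal muscle markers moved in the same direction as Ddo. The list has 13 genes, all on the array. Of these, 11 were Present on both WT arrays and 3 on both KO arrays, while Myog and Myod1 had no Present call on any array. When all tested probe sets that name 1 gene were ranked by how close their centred log2 signals over the 4 arrays came to those of Ddo 1439096_at, the nearest were Myl1, Tpm2 and Mybpc1. They lie on chromosomes 1, 4 and 10, the last being that of Ddo and Hdac2. The Euclidean distances were 0.55, 0.59 and 0.69 log2 units over 4 arrays. Myl1, a fast skeletal myosin light chain, read 419 and 377 in KO and 3082 and 2945 in WT at 1452651_a_at. Tpm2, beta-tropomyosin, read 118 and 94.3 in KO and 800 and 692 in WT at 1449577_x_at. Mybpc1, the slow skeletal myosin-binding protein C, read 22.4 and 33.5 in KO and 150 and 124 in WT at 1444341_at. The ranking used the same Ddo values that the group was chosen by, so it seeks out probe sets with a like fall. It is a description of these libraries only. The part of skeletal muscle RNA in the difference of Ddo was not tested.

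Cd24a encodes a small, heavily glycosylated protein held in the membrane by a lipid anchor, known as a marker of precursor cells, blood cells and epithelia. It was higher in KO at all 3 of its probe sets, by similar amounts. The brightest, 1448182_a_at, read 1012 and 995 in KO and 628 and 575 in WT. Probe set 1416034_at read 515 and 556 in KO and 312 and 340 in WT, and 1437502_x_at read 416 and 486 in KO and 276 and 259 in WT. Both KO pools exceeded both WT pools each time, where 47.5% of all tested probe sets had no overlap in either direction. The log2 differences were 0.74 ± 0.12, 0.71 ± 0.14 and 0.75 ± 0.15, which correspond to 1.67-fold, 1.64-fold and 1.68-fold. These probe sets read transcripts of 1 gene in the same RNA and are not independent measurements. The signal log ratio gave differences of 0.75, 0.70 and 0.70.

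Marker lists of cell types known to carry Cd24a were set beside it. The erythroid list had 5 of its 13 genes tested, 1 of them called higher in KO, as were 0.481% of all genes. Its summed signals were 2831 and 3064 in KO and 2749 and 2879 in WT, with Tfrc as its brightest gene. The median log2 difference of the 5 was 0.019. The marker that passed in limma was Hbb-y, an embryonic beta-like globin, higher in KO (1.83 ± 0.39, adjusted p = 0.0376). It was dim, with 58.8 and 57.3 in KO and 22.6 and 11.8 in WT at 1436717_x_at, and Absent on WT replicate 2. At the probe sets that name them alone, Hba-a1, Hbb-bh1, Klf1 and Rhag had no Present call. The leukocyte list had 7 of 13 tested and none called, with 1350 and 1328 in KO and 1535 and 1678 in WT. C1qa, C1qc, Fcer1g, Cd3e and Cd79a had no Present call. The epithelial list had 4 of 12 tested and none called, with 702 and 775 in KO and 751 and 632 in WT, and Epcam and Cdh1 were among 7 genes with no Present call. The neural and Schwann cell list had 4 of 14 tested and none called, with 450 and 467 in KO and 552 and 522 in WT. Mbp, Tubb3, Nefm, Snap25, Gfap and Th had no Present call. The part of any of these cells in the difference of Cd24a was not tested.

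Cd164 encodes a sialomucin, a sugar-coated adhesion protein found on blood progenitors and many other cells, much of it in endosomes and lysosomes. Its main probe set, 1416440_at, read 2493 and 2796 in KO and 1752 and 1970 in WT. Both KO pools were above both WT pools, by 0.51 ± 0.11 on the log2 scale or 1.42-fold. A lack of overlap was common, at 47.5% of all tested probe sets. Its other probe set, 1431527_at, was Absent on all 4 arrays, with 23.6 and 13.6 in KO and 13.9 and 16.9 in WT. In the signal log ratio the difference of 1416440_at was 0.35.

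The probe sets closest in pattern to Cd24a and Cd164 were ranked in the same way as for Ddo. For Cd24a 1448182_a_at they were Mn1 on chromosome 5, Atp6v1g1 on chromosome 4 and Mrap on chromosome 16, at distances of 0.050, 0.074 and 0.081 log2 units over 4 arrays. Atp6v1g1, a subunit of the vacuolar proton pump, read 1704 and 1760 in KO and 1086 and 1037 in WT. For Cd164 they were Zmym3 on chromosome X, Lpp on chromosome 16 and Hunk on chromosome 16, at 0.020, 0.023 and 0.037. Lpp, a LIM-domain protein of focal adhesions, read 874 and 967 in KO and 601 and 681 in WT. With 4 arrays, a close match of this kind is a description of these libraries only.

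**Figure D2:**
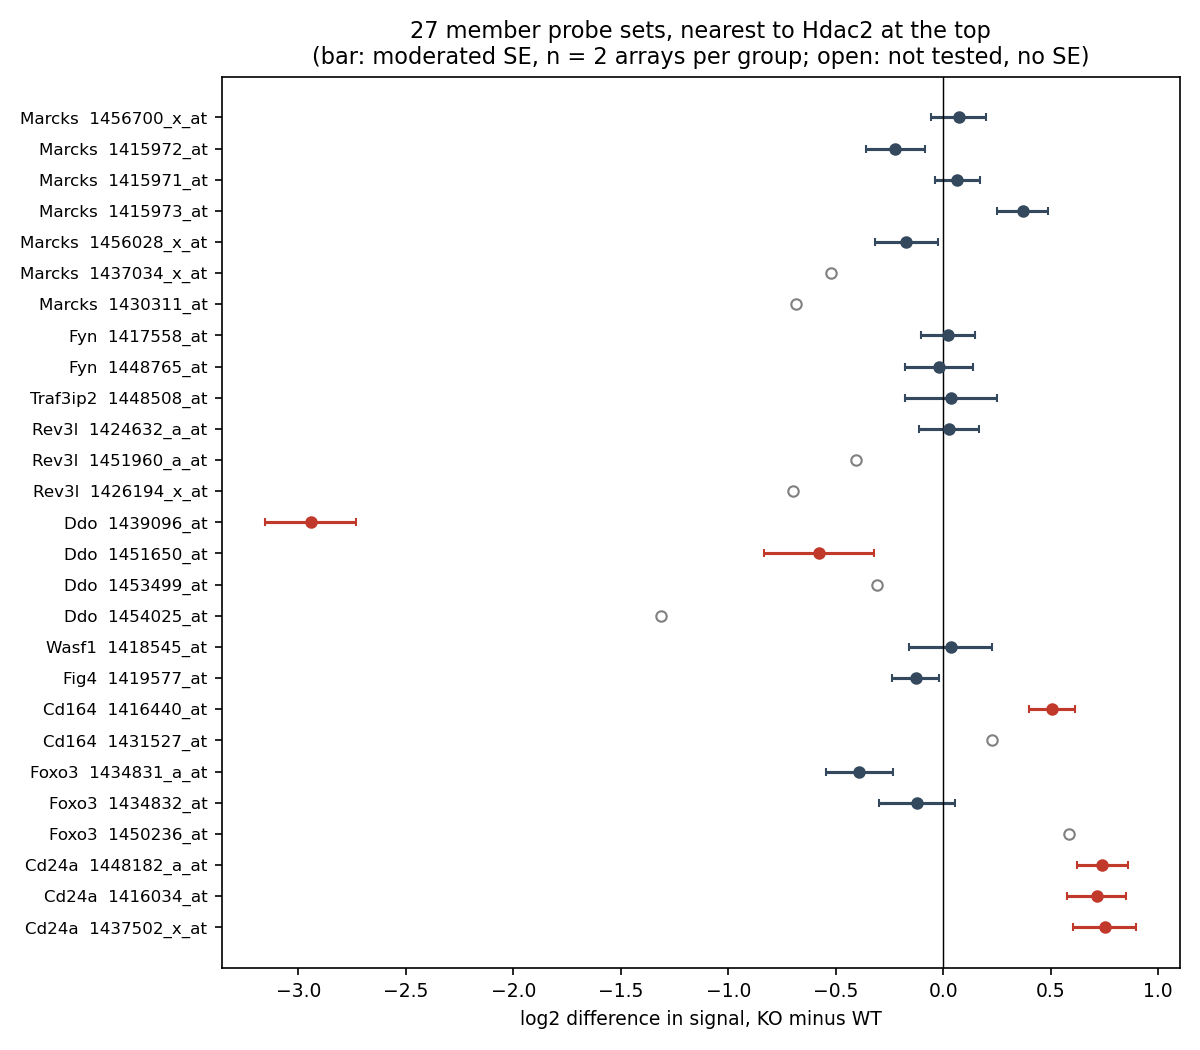
Log2 difference in signal (KO minus WT) for all 27 probe sets, ordered from the gene nearest to Hdac2 at the top to the farthest at the bottom; bars are the moderated SE with n = 2 arrays per group, red marks Ddo, Cd164 and Cd24a, and open circles were not tested and have no SE. Ddo 1439096_at stands at -2.94, the 3 Cd24a probe sets at 0.71 to 0.75, and the tested probe sets of Fyn, Traf3ip2, Rev3l and Wasf1 within 0.035 of 0.

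The other 7 genes, with 13 tested probe sets, did not pass in the fit, and their differences were mixed in sign. Together with Ddo 1451650_at they make 14 probe sets not called, 7 above and 7 below 0, with differences between -0.58 and 0.37. At 5 of the 14 the genotypes did not overlap, where 47.5% of all tested probe sets had no overlap. The median size of the 14 differences was 0.097.

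Marcks, the nearest gene, encodes a substrate of protein kinase C that binds actin and sequesters membrane phosphoinositides. It has 7 probe sets, of which 5 were tested, and these did not move together. Probe set 1415973_at read 1150 and 1282 in KO and 881 and 1001 in WT (0.37 ± 0.12), and 1415971_at read 1349 and 1334 in KO and 1280 and 1286 in WT (0.064 ± 0.10). At both, the KO pools lay above the WT pools. Probe set 1415972_at read 1430 and 1068 in KO and 1544 and 1347 in WT (-0.22 ± 0.14), with overlap. Likewise 1456700_x_at read 1313 and 1722 in KO and 1451 and 1409 in WT (0.073 ± 0.13), and 1456028_x_at read 611 and 688 in KO and 843 and 632 in WT (-0.17 ± 0.15). The last changed sign without WT replicate 1, and 1456700_x_at without KO replicate 2. The untested 1437034_x_at read 67.6 and 155 in KO and 192 and 112 in WT, and 1430311_at read 36.9 and 29.5 in KO and 44.0 and 63.9 in WT.

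Fyn encodes a Src-family tyrosine kinase that signals from integrins and other membrane receptors. Its values hardly differed between the genotypes. Probe set 1417558_at read 556 and 588 in KO and 554 and 572 in WT, and 1448765_at read 216 and 220 in KO and 225 and 216 in WT. The differences were 0.023 ± 0.12 and -0.020 ± 0.16, well inside their errors, and that of 1417558_at turned to -0.018 with quantile normalization. Traf3ip2, an adaptor of the IL-17 receptor, read 119 and 99.7 in KO and 116 and 97.4 in WT at 1448508_at (0.035 ± 0.21). It was Present on both KO arrays and Absent on both WT arrays, with detection p-values of 0.0186 and 0.0376 in KO and 0.0676 and 0.0806 in WT. The differing calls thus go with nearly equal signals close to the detection limit.

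Rev3l encodes the catalytic subunit of DNA polymerase zeta, which copies past damaged bases. Its bright probe set 1424632_a_at read 657 and 720 in KO and 597 and 762 in WT (0.028 ± 0.14), and the sign of this difference turned with quantile normalization and with median centring. The WT pools enclosed both KO pools. The untested 1451960_a_at read 70.9 and 84.9 in KO and 112 and 94.7 in WT, and 1426194_x_at, Absent throughout, read 5.1 and 2.7 in KO and 15.1 and 2.4 in WT. Wasf1, a subunit of the WAVE complex that starts branched actin filaments through Arp2/3, read 223 and 158 in KO and 182 and 186 in WT (0.034 ± 0.19). Here the KO pools enclosed both WT pools, and the sign turned without KO replicate 1.

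Foxo3 encodes a forkhead transcription factor held out of the nucleus when Akt phosphorylates it, and known in muscle for driving genes of protein breakdown and autophagy. Probe set 1434831_a_at read 267 and 225 in KO and 328 and 316 in WT, so both KO pools were below both WT pools (-0.39 ± 0.16, or 76.2% of WT). Probe set 1434832_at read 175 and 200 in KO and 223 and 185 in WT, with overlap (-0.12 ± 0.18), and its sign turned without WT replicate 1. The remaining probe set, 1450236_at, was Absent throughout at 9.5 and 5.7 in KO and 6.0 and 4.0 in WT. Fig4, a phosphoinositide phosphatase of the endosome and lysosome, read 995 and 1022 in KO and 1118 and 1085 in WT. The KO pools were below the WT pools by a small amount (-0.13 ± 0.11).

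The other genes around Hdac2 are what remained after the members, chosen on this contrast, were set aside, so their share of calls is in part fixed by that choice. Within 10 Mb on either side, 84 tested probe sets named 54 further genes, and 1 of them, or 1.19%, passed, beside 1.34% of all probe sets tested. With the members put back, 6 of 103 passed (5.83%), 5 of them the member probe sets already described. Without the members, the median size of the 84 differences was 0.19, as it was over the whole array to this precision. The counts by distance that follow leave the members out as well. Within 5 Mb, 0 of 40 passed in limma, and 3 had an unadjusted p under 0.05, or 7.5%, where 15.5% of all tested probe sets did. Between 5 and 10 Mb, 1 of 44 passed and 9 had an unadjusted p under 0.05 (20.5%). Farther out on chromosome 10, the share called was 1.32% of 76 at 10 to 20 Mb, 0.957% of 209 at 20 to 40 Mb and 1.74% of 459 beyond. On the other chromosomes it was 1.34% of 15787. The farther intervals were not trimmed in this way, and no difference between these shares was tested.

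**Figure D3:**
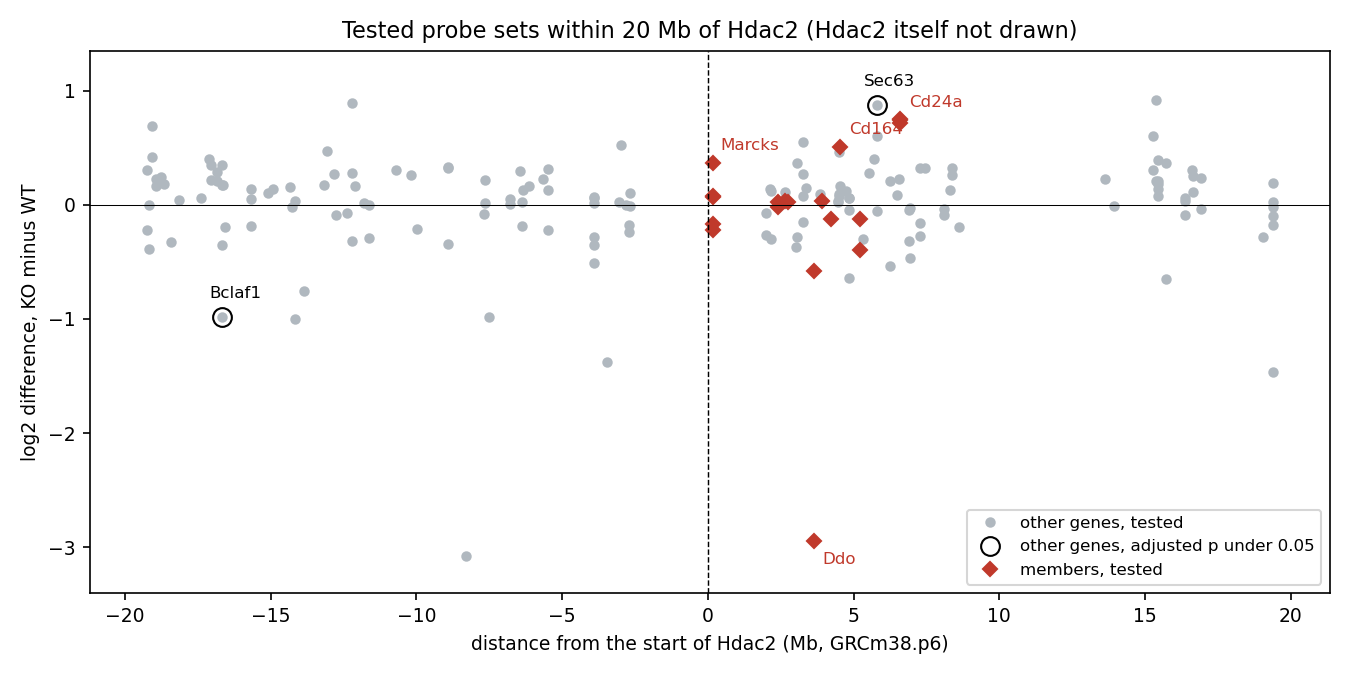
Log2 difference (KO minus WT) of every tested probe set within 20 Mb of Hdac2 against its gene's distance from the start of Hdac2 in Mb of GRCm38.p6, with members as red diamonds, other genes as grey points and a ring on other genes past an adjusted p of 0.05; Hdac2 itself is not drawn. Most points lie near 0 on both sides, Ddo stands alone at the foot of the right side, and Sec63 is the ringed gene within 10 Mb. A dim probe set on the left side, not called, lies as low at -3.07.

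The gene that passed within 10 Mb was Sec63, which encodes a subunit of the machinery that moves proteins into the endoplasmic reticulum and lies at 5.79 Mb, between Foxo3 and Cd24a. Its probe set 1424925_at read 246 and 221 in KO and 109 and 149 in WT (0.88 ± 0.19, adjusted p = 0.0436). A second probe set, 1419819_s_at, read 241 and 216 in KO and 157 and 144 in WT (0.60 ± 0.17, adjusted p = 0.115), and another, 1424924_at, read 84.9 and 109 in KO and 95.2 and 105 in WT (-0.057 ± 0.22). That call did not survive leaving out WT replicate 1 (adjusted p = 0.323), KO replicate 1 (0.103) or KO replicate 2 (0.0949), nor a fit with no variance trend (0.234), no filter on detection (0.291) or the signal log ratio (0.399).

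The nearest tested genes on each side did not pass. Before Hdac2 these were Nt5dc1, a protein of the 5'-nucleotidase family (0.11 ± 0.22), and the nucleosome assembly proteins Tspyl4 (-0.010 ± 0.14) and Tspyl1 (-0.24 ± 0.13). Tspyl1 read 490 and 565 in KO and 644 and 597 in WT, so its KO pools lay below its WT pools (adjusted p = 0.404). After Hdac2, and besides Marcks, they were Lama4, Fam229b and Tube1. Lama4, a laminin chain of vessel and muscle basement membranes, read 1335 and 1430 in KO and 1433 and 1468 in WT (-0.070 ± 0.11, adjusted p = 0.792). Fam229b stood at 0.14 ± 0.26 and Tube1, epsilon-tubulin, at 0.13 ± 0.42. The 6 differences lay between -0.24 and 0.14.

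Functional relatives of the 10 genes, in 9 lists of partners, paralogues and targets, showed few calls. The lists held 89 tested genes that are not members, each taken at its brightest tested probe set. Of these, 2 were called lower and 0 higher in KO in limma (2.25%, beside 1.3% of 10184 genes, 0.481% higher and 0.815% lower). An unadjusted p under 0.05 was found for 17 (19.1%, beside 15.6% of all genes). Their median log2 difference was 0.054, beside 0.035 over all genes.

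Slc1a1, a transporter that carries glutamate and D-aspartate into cells, was 1 of 5 tested relatives of Ddo and fell to 115 and 95.1 in KO, against 219 and 261 in WT (-1.19 ± 0.19, adjusted p = 0.00620). Both KO pools were far below both WT pools, and the dimmer probe set 1425415_a_at differed by -0.79 ± 0.27 (adjusted p = 0.193). The skeletal muscle markers moved the same way, and their part in the difference was not tested. The other 4 did not pass, and the median of the 5 was -0.35. Among 8 tested genes of the MARCKS family and protein kinase C, Prkce, a kinase isoform of heart muscle, fell to 222 and 246 in KO, against 376 and 387 in WT (-0.71 ± 0.15, adjusted p = 0.0340), and the list's median was 0.076. Another probe set of Prkce, 1437861_s_at, differed by 0.032 ± 0.16. Prkce did not pass when WT replicate 1 (adjusted p = 0.169), WT replicate 2 (0.143) or KO replicate 1 (0.0653) was left out. Both genes lost their calls without the variance trend, without the filter on detection and with the signal log ratio (adjusted p = 0.353 for each).

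**Figure D4:**
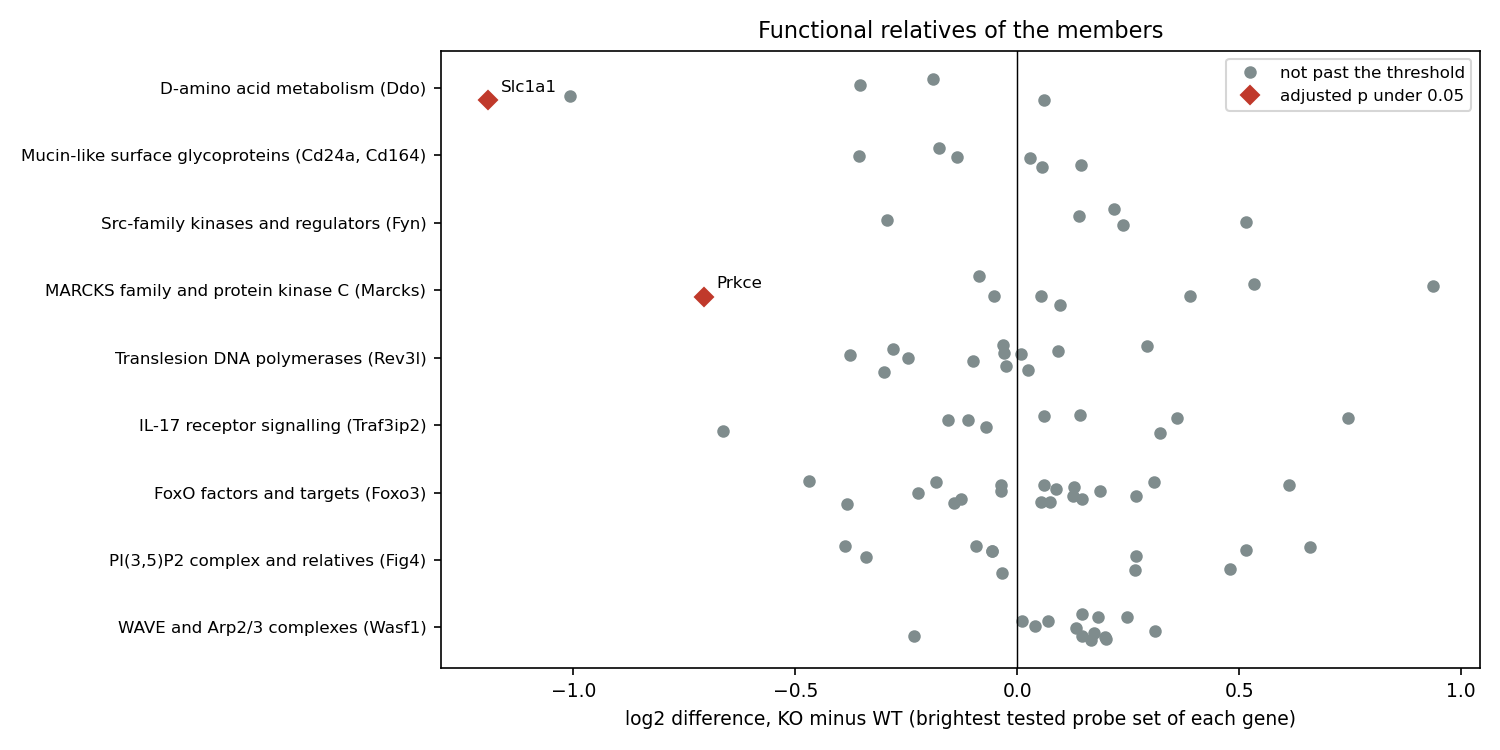
Log2 difference (KO minus WT) of the tested relatives of the members, a point for each gene at its brightest tested probe set and a row for each list, with the vertical scatter inside a row added for legibility; red diamonds passed an adjusted p of 0.05. Slc1a1 at -1.19 and Prkce at -0.71 are the 2 that passed.

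No gene of the other 7 lists passed at its brightest tested probe set in limma. Their counts at an unadjusted p under 0.05 stand against the 15.6% of all genes. Among 5 Src-family kinases and regulators (median 0.22), the adaptor Pag1, which recruits the inhibitory kinase Csk, had the smallest p at 0.52 ± 0.19 (adjusted p = 0.220), and 1 gene had an unadjusted p under 0.05. Among 19 FoxO factors and targets (median 0.060, with 3 at unadjusted p under 0.05), it was Klf15, a metabolic transcription factor, at 0.61 ± 0.20 (adjusted p = 0.173). Bcl2l11, a cell death gene that FoxO factors can switch on, was called at a probe set that is not its brightest. At 1435448_at it read 779 and 879 in KO and 461 and 560 in WT (0.71 ± 0.14, adjusted p = 0.0200), but at the brighter 1456005_a_at 969 and 911 in KO and 877 and 909 in WT (0.074 ± 0.11), and at 1435449_at the difference was -0.70 ± 0.26, so its probe sets disagree. Among 9 genes of IL-17 receptor signalling (median 0.060, 2 at unadjusted p under 0.05), the transcription factor Cebpb stood at -0.66 ± 0.22 (adjusted p = 0.168).

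For the phosphoinositide relatives of Fig4 (11 tested, 4 at unadjusted p under 0.05, all higher), the phosphatase Mtmr1 stood at 0.66 ± 0.20 (adjusted p = 0.133), and the list's median of -0.034 turned to 0.021 with quantile normalization. For translesion polymerases and their partners (12 tested, 1 at unadjusted p under 0.05, median -0.032), the sliding clamp Pcna stood at 0.29 ± 0.12 (adjusted p = 0.275). For the mucin-like glycoproteins (6 tested, 0 at unadjusted p under 0.05, median -0.054), Cd34 stood at -0.14 ± 0.11 (adjusted p = 0.600). For the WAVE and Arp2/3 complexes (14 tested, 0 at unadjusted p under 0.05), 13 differences were above 0, or 12 with quantile normalization or median centring, with a median of 0.16. The closest was Abi1, a WAVE subunit, at 0.31 ± 0.15 (adjusted p = 0.336), and 55.7% of all genes had a difference above 0.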

How the data were processed

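Per the submitters' processing notes the arrays were analysed with MAS5 (no version named). Per the file headers, the deposited signal is a linear intensity, 1 colour, with a detection p-value and call per probe set and a signal log ratio on a log2 scale against a baseline array not identified here. The signals of all 4 arrays had a trimmed mean of 150.

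Of 45101 probe sets, 64 controls were left out. The platform annotation names 1 gene for 34945, several for 932 and none for 9160. Symbols and positions came from GRCm38.p6 (34741 matched). Probe sets Present on both arrays of at least 1 genotype, 19065 in all, were tested with limma 3.58.1 in R 4.3.3 (lmFit, eBayes with a variance trend, Benjamini-Hochberg adjustment over all tested, threshold 0.05, n = 2 arrays per group). The 4 signals of 0 were set to 0.1. A difference is the KO mean minus the WT mean of log2 signal ± moderated SE. The number of arrays limits precision.

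Genes named are all members, Hdac2, the 3 nearest tested genes on each side, genes called within 10 Mb, in each list of relatives those called or else the one with the smallest p, and the 3 closest patterns per lead gene. Members and lists were chosen with earlier results of these data known. Alternatives are given in the closing section.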

Additional observations from a re-analysis of the deposited data

How the results depend on the processing

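The 5 called members kept their sign under all 11 alternatives on log2 signal, which was largely fixed in advance. Their genotypes did not overlap, so leaving out an array or adding an offset could not turn a sign. Changing the filter, the variance trend or the block left the differences as they were. These are also the values the group was chosen by. The difference of Ddo 1439096_at ranged from -3.26 to -2.63, with -2.35 in the signal log ratio. The calls leaned on the filter on detection and on the variance trend. Without the filter, limma called 37 probe sets on the whole array, 1 of the members, 0 of the other genes within 10 Mb (16 at unadjusted p under 0.05) and 0 of the relatives (14 at unadjusted p). Without the variance trend it called 23, 1, 0 (12 at unadjusted p) and 0 (12 at unadjusted p). The 1 member left in each case was Ddo 1439096_at. With 1 array left out, the counts ranged from 124 to 484, from 2 to 5, from 0 to 1 and from 1 to 3 in the same order. Without KO replicate 1 the whole-array count was 484, and without WT replicate 1 it was 124. With the signal log ratio in place of the log2 signal, 1 probe set was called, 0 of the members (4 at unadjusted p under 0.05), and Hdac2 stood at -5.40 with adjusted p = 0.0797. For the other genes within 10 Mb and the relatives, where that setting was chosen after seeing the data, it gave 0 (11 at unadjusted p under 0.05) and 0 (14 at unadjusted p). With the replicate block the counts were 721, 5, 2 and 4. The labels do not say that a number marks a shared litter, and the deviations of same-numbered arrays correlated at -0.011, so the pairing was not used. Requiring Present on all 4 arrays removes Hdac2 and Traf3ip2, which have no value there. Quantile normalization, median centring and an offset of 16 changed none of these counts by over 1.5 times. Weak signal limits the rest: 8 of the 27 probe sets did not pass the filter on detection.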
